A study of Mus musculus with 4 samples.

Results

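The interferon-induced GTPases measured here are members of the guanylate-binding protein (GBP) and immunity-related GTPase (IRG) families. They were taken as all probe sets that the platform annotation pairs with exactly 1 gene among Gbp2, Gbp3, Gbp4, Gbp5, Gbp6, Gbp7, Igtp, Irgm1, Irgm2 and Iigp1. The choice of family used measured values, since Gbp6 and Igtp stood high in 1 of the 4 cell lines, the melanotransferrin clone MTf 4. The rule found 12 probe sets of 8 genes, among 45101 probe sets on the array and 18193 genes with a probe set of their own, and Gbp4 and Gbp5 had no probe set of their own here.

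The cells were LMTK- cells, thymidine kinase-deficient mouse fibroblasts derived from L cells. The clones MTf 4 and MTf 6 were stably transfected with the vector pCI-neo carrying the mouse cDNA of melanotransferrin, an iron-binding protein of the cell surface, and the lines vector 1 and vector 2 carried pCI-neo alone. All 4 lines thus shared the LMTK- background and the vector, in which a viral promoter drives the insert and a resistance gene allows selection. Each clone is 1 selected line on 1 array, whether vector 1 and vector 2 are clones or separate cultures is not stated in the labels, and spread between arrays may be in part technical.

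GBPs are large dynamin-like GTPases that assemble on bacteria and on the vacuoles of intracellular parasites and break these membranes open. IRG proteins are smaller GTPases that act on the same vacuoles, where effectors such as Iigp1 (Irga6) coat the membrane, while Irgm1, Irgm2 and Igtp (Irgm3) are regulators that sit on the cell's own membranes and hold the effectors inactive. Interferon-gamma, and for many of these genes also type I interferon, switches the families on through STAT and IRF transcription factors in macrophages, fibroblasts and most other mouse cells.

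Meltf, the gene of melanotransferrin, had a signal of 1519 in MTf 4 and 1885 in MTf 6, against 265 in vector 1 and 274 in vector 2, as the labels state. The trimmed mean was 1000.01 on each array, and medians ran from 208.7 to 214.4. Fibroblast markers were present, with 8 of 9 above the filter described next and a summed signal of 272017 in MTf 4 and 218109 in MTf 6, against 202617 in vector 1 and 226850 in vector 2. Macrophage markers, of which 5 of 9 passed, summed to 2707 in MTf 4 and to between 1934 and 2297 on the other arrays. Of the 5, Csf1r and Lyz2 were highest in MTf 4, Adgre1 and Fcgr1 were lowest there, and Cd68 was highest in vector 2. The brightest fibroblast markers, Vim, S100a4, Fn1, Col1a2 and Col3a1, were all highest in MTf 4, by 1.00 to 1.58-fold over the next array. Of the dendritic, endothelial and epithelial markers 1 each passed, Zbtb46, highest in MTf 4, and Kdr and Krt8, lowest in MTf 4. Markers of T and NK cells, the usual sources of interferon-gamma, passed in 0 of 6 genes. Marker signals above those of another array do not identify cells, and their part in the results below was not tested. Since RNA came from whole cultures, more cells with a transcript and more transcript per cell cannot be told apart.

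Signals are intensity values on a linear scale. Differences are on the scale log2(signal + 32), which understates changes of dim probe sets, and folds are the same differences turned back. A probe set was tested only where its mean on that scale reached the median over the 45037 probe sets that are not controls, equal to a signal of 196. Of the 12 GTPase probe sets 4 passed this filter, those of Igtp and Irgm1 and 1 each of Gbp6 and Iigp1, and 3 of them would pass on the other 3 arrays alone. The probe set of Gbp6 passed only through MTf 4.

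Gbp6 and Gbp8, the GBP genes of the chromosome 5 cluster with a probe set of their own, stood far higher in MTf 4 than in any other line. Gbp6, a GBP of this cluster, had a signal of 2168 in MTf 4 and 83.0 in MTf 6, against 169 in vector 1 and 387 in vector 2, by probe set 1438676_at. MTf 4 was thus 5.25-fold above vector 2, the next array, and 19.1-fold above MTf 6, the other clone. By its other probe set, 1447927_at, Gbp6 measured 1976 in MTf 4 and 25.5 in MTf 6, against 17.2 in vector 1 and 213 in vector 2. Here the gap over the next array, again vector 2, was 8.21-fold, so both probe sets gave the same array on top and the same array next. These values chose the family, so they are given without a test.

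Gbp8, a neighbour of Gbp6 in the same cluster and not among the 10 genes of the rule, had the same pattern. Its signals were 1640 in MTf 4 and 14.0 in MTf 6, against 10.8 in vector 1 and 118 in vector 2, an 11.1-fold gap over vector 2. Of all 45037 non-control probe sets, 5 had a wider gap between MTf 4 and the next array than 1438676_at, and 3 a wider one than 1447927_at. The 6 widest gaps included both Gbp6 probe sets and the Gbp8 probe set. Coding sequences of the chromosome 5 GBP genes are closely related, and the array's probe sequences were not used here, so the 3 probe sets may in part read transcripts of each other or of the cluster's other members, Gbp4, Gbp9, Gbp10 and Gbp11.

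**Figure D1:**
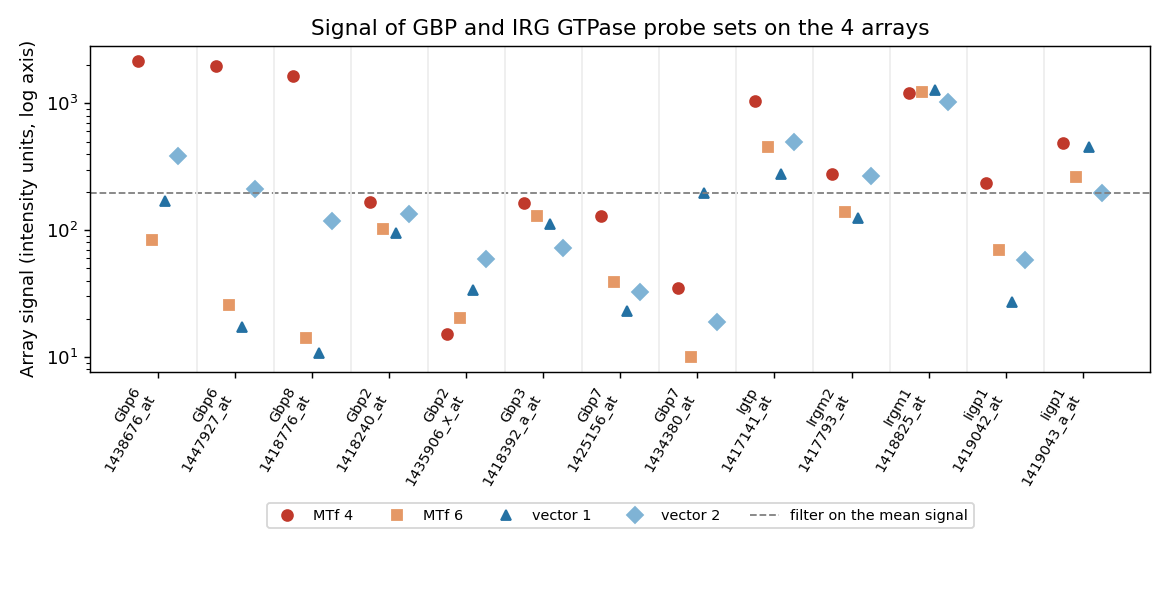
Signal (intensity units, log axis) of the 12 GTPase probe sets and of Gbp8 on each of the 4 arrays, 1 point per array, with a dashed line at the filter on the mean signal. MTf 4 is apart from the other 3 arrays in Gbp6 and Gbp8, 2.03-fold above the next array in Igtp, and level with them in Irgm1.

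**Figure D2:**
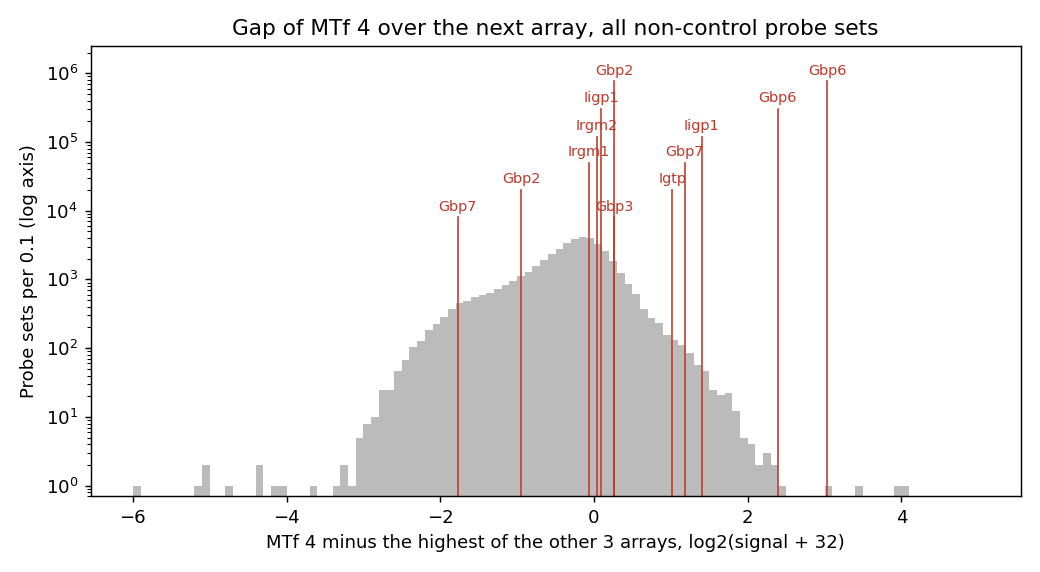
Histogram over the 45037 non-control probe sets of the log2 difference between MTf 4 and the highest of the other 3 arrays, with counts on a log axis. Red lines mark the 12 GTPase probe sets, which run from -1.77 for a Gbp7 probe set to 3.04 for a Gbp6 probe set. The other Gbp6 probe set, at 2.39, is also in the far right tail.

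MTf 4 had the highest signal in 9 of the 12 GTPase probe sets, against 26.6% of all non-control probe sets. It was at least 2-fold above each other array in 5 of 12, against 1.18% of all. As this is the pattern for which the family was picked, the shares describe it and support nothing further. The 5 were both probe sets of Gbp6, that of Igtp, and 1 each of Gbp7 and Iigp1. The narrowest gap among them was that of Igtp, at 2.03-fold over the next array. The next probe set in rank, that of Gbp3, was well below the mark at 1.20-fold. By the probe set with the highest mean of each gene, the 8 genes were between 0.06 (Irgm1) and 3.37 (Gbp6) above the mean of the other 3 arrays, with a median log2 difference of 0.66.

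Igtp, an IRG regulator of the endoplasmic reticulum, was 2.50-fold above the mean of the other arrays in MTf 4. Its signal was 1042 in MTf 4 and 450 in MTf 6, against 278 in vector 1 and 498 in vector 2, so MTf 6 lay between the vector lines. Irgm2, the gene next to Igtp on chromosome 11 and a regulator of the Golgi membrane, measured 278 in MTf 4 and 138 in MTf 6, against 125 in vector 1 and 269 in vector 2. For Irgm2, MTf 4 and vector 2 were 1.03-fold apart, and MTf 6 and vector 1 both lay lower. Irgm1, a regulator also known for its role in autophagy and resistance to mycobacteria, measured 1213 in MTf 4 and 1221 in MTf 6, against 1275 in vector 1 and 1019 in vector 2. The groups overlapped for all 3 regulators, and in Irgm1 the 4 arrays spanned a narrow range with MTf 4 in the third place.

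The promoters of these 3 regulators are shown because the genes are close relatives on 1 chromosome that took different positions in MTf 4. The windows reach from 250 bases before to 50 bases after the RefSeq start of each gene, 5′ to 3′ on the gene's strand, in the assembly GRCm38.p6. They are chr11:58199306-58199605 on the plus strand for Igtp, chr11:58214727-58215026 on the plus strand for Irgm2 and chr11:48871371-48871670 on the minus strand for Irgm1. Capitals mark matches on either strand to GAAA, any 2 bases and GAAA again, the core of the interferon-stimulated response element (ISRE) read by IRF factors, and to TTCNNNGAA, the gamma-activated site (GAS).
Igtp: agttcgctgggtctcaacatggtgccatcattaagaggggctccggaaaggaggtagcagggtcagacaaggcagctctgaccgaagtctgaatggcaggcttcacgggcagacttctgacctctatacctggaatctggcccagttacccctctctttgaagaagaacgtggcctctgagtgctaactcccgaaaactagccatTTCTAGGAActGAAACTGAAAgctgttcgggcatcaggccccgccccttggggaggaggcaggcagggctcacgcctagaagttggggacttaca
Irgm2: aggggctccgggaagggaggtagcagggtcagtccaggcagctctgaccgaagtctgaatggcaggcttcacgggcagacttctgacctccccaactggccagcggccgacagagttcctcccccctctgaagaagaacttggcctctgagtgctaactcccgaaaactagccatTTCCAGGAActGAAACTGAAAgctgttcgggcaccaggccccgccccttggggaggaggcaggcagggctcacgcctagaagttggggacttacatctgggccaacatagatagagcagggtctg
Irgm1: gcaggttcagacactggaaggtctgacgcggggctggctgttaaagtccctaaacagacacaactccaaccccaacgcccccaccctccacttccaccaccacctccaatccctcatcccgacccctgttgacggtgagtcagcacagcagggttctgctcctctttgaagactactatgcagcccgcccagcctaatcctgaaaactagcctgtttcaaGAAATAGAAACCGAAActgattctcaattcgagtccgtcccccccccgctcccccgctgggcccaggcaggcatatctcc

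The Igtp and Irgm2 windows aligned over 271 columns with 247 identical bases, an identity of 91.1%. Both held 1 GAS match and 1 ISRE match in the same spacing, with first bases at -45 and -34 from the start in Igtp and at -75 and -64 in Irgm2. The Irgm1 window held 2 overlapping ISRE matches, the first at -30, and no GAS match. Over all 32851 promoter windows of this length in the table, 3.44% held the ISRE core, 8.30% the GAS letters and 0.454% both. Windows on chromosome 18, which holds Iigp1, were left out of the GTPase counts that follow. Among the other GTPases, 7 genes had a window (Gbp2, Gbp3, Gbp5, Gbp7, Igtp, Irgm1 and Irgm2), in 8 windows, as Gbp3 has 2. An ISRE core was in 7 of the 8 windows, all but the second of Gbp3, and a GAS match in 4 (Gbp5, Gbp7, Igtp and Irgm2). A match is a run of letters and says nothing of binding, and the start in these cells was not measured.

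The GBP genes of chromosome 3 were measured only by probe sets under the filter, and their pattern was mixed. Gbp2, which targets parasite vacuoles, measured 167 in MTf 4 and 101 in MTf 6, against 95 in vector 1 and 134 in vector 2, by 1418240_at. Its other probe set, 1435906_x_at, ran the other way, at 15.2 in MTf 4 and 20.3 in MTf 6, against 33.6 in vector 1 and 58.9 in vector 2. The log2 difference of MTf 4 from the mean of the other arrays was 0.50 by the first probe set and -0.01 averaged over both. Gbp3 measured 163 in MTf 4 and 130 in MTf 6, against 112 in vector 1 and 72.6 in vector 2, with both clones above both vector lines.

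Gbp7, a GBP linked to the oxidative burst and to delivery of antimicrobial cargo, also had a pair of probe sets that disagreed. By 1425156_at it measured 129 in MTf 4 and 38.9 in MTf 6, against 23.1 in vector 1 and 32.4 in vector 2, a 2.27-fold gap over MTf 6. By 1434380_at it measured 34.7 in MTf 4 and 10 in MTf 6, against 196 in vector 1 and 18.8 in vector 2, so that vector 1 was on top. Gbp2b, the mouse gene once called Gbp1, lies in the same cluster and measured 12.2 in MTf 4 and 112 in MTf 6, against 14.9 in vector 1 and 16 in vector 2. No chromosome 3 GBP probe set thus had the pattern and size of Gbp6 and Gbp8. The Gbp7 promoter, chr3:142530086-142530385 on the plus strand of GRCm38.p6, is shown as an example from chromosome 3, with capitals as above. Gbp7 was highest in MTf 4 by 1425156_at only, and Gbp2 and Gbp3 also had a probe set highest there.
Gbp7: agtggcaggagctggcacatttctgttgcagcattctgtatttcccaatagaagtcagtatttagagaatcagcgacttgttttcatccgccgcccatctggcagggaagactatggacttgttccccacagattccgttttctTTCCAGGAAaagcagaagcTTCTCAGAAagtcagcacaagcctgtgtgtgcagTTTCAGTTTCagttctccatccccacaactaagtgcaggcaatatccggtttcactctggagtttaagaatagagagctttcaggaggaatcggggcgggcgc

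The Gbp7 window held 2 GAS matches, the first at -106, and an ISRE match at -53. The windows of Gbp2 and Gbp3 held no GAS match.

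Iigp1, the IRG effector on chromosome 18, was highest in MTf 4 by both of its probe sets, by different margins. By 1419042_at, which was below the filter, it measured 238 in MTf 4 and 70.0 in MTf 6, against 27.3 in vector 1 and 58.5 in vector 2, a 2.64-fold gap over MTf 6. By 1419043_a_at it measured 485 in MTf 4 and 261 in MTf 6, against 451 in vector 1 and 198 in vector 2. The gap over vector 1 was then 1.07-fold, and the groups overlapped. Ifi47 (Irgd), another IRG effector, measured 116 in MTf 4 and 254 in MTf 6, against 151 in vector 1 and 137 in vector 2, with MTf 4 lowest. Of 8 further GBP, IRG and Mx genes with a probe set, 1 passed the filter, the constitutive Irgq, at 862 in MTf 4 and 710 in MTf 6, against 578 in vector 1 and 841 in vector 2. The antiviral dynamin-like genes Mx1 and Mx2 stayed at or below 65.6 on all 4 arrays.

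Between the clones as a group and the vector lines, 0 of the 4 GTPase probe sets that could be tested passed (limma, Benjamini-Hochberg adjusted p over all 22519 tested probe sets), against 0.00444% of all tested. At an unadjusted threshold of 0.05 the count was also 0 of 4, against 1.90% of all. This contrast holds MTf 4, so these rows too are a description. Meltf, whose cDNA the clones carry, was not called in the same limma fit either. Its log2 difference was 2.52 and its adjusted p 0.090, so even a large difference found in both clones can go uncalled here. Igtp averaged 746 ± 418 in the clones, against 388 ± 155 in the vector lines (SD, n = 2 each), a log2 difference of 0.83 with a standard error of 0.43. Gbp6 by 1438676_at averaged 1125 ± 1474 in the clones, against 278 ± 154 in the vector lines (SD, n = 2 each), a difference of 0.79 with a standard error of 1.16. The spread between the clones thus exceeded the difference between the groups. For Irgm1 the difference was 0.09 (standard error 0.22) and for Iigp1 0.23 (standard error 0.45).

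One array decided the direction for Gbp6. Without MTf 4 its clones-minus-vector difference was -1.33, and without MTf 6 it was 2.92. The second value is MTf 4 against the vector lines, the pattern for which Gbp6 was picked, and is given without a test. For Igtp the difference was 0.25 without MTf 4 and 1.41 without MTf 6. Both clones lay above both vector lines in 3 of 12 GTPase probe sets (Gbp3, 1425156_at of Gbp7 and 1419042_at of Iigp1), against 14.3% of all non-control probe sets. Both lay below in 1 of 12, 1435906_x_at of Gbp2, against 15.1% of all.

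The other lines differed among themselves as well. Vector 2 was at least 2-fold above vector 1 in 2 of 12 probe sets, both of them Gbp6, against 6.59% of all. The Gbp6 folds of vector 2 over vector 1 were 2.09 and 4.97, and those over MTf 6 were 3.64 and 4.26. Vector 1 was at least 2-fold above vector 2 in 2 of 12, 1 probe set each of Gbp7 and Iigp1, against 7.35% of all. Each line was hybridised once, so no difference between single lines has a replicate check.

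The genes above the filter that flank the GTPase clusters did not stand apart in MTf 4 as Gbp6 and Gbp8 did. The 10 nearest genes above the filter around the chromosome 5 cluster were taken, 5 on either side in the gene order of GRCm38.p6. MTf 4 was highest in 2, against 30.5% of all genes above the filter. It was at least 2-fold above each other array in 0, against 0.225%, a share at which 0 of 10 says little. Neighbours under the filter, where Gbp8 itself lay, were not counted. Their differences from the mean of the other arrays ran from -0.24 to 0.86, with a median of 0.00024 and Hsd17b11, a lipid droplet enzyme, at the top. Around the chromosome 3 cluster the range was -0.41 to 0.31, with Rap1gds1 highest. Around Igtp and Irgm2 it was -0.59 to 0.52, with Zfp692 highest, and around Irgm1 and Ifi47 it was -0.70 to 0.72, with Scgb3a1 highest. Around Iigp1 it was -0.38 to 1.12, the top value being Synpo at 430 in MTf 4 and 122 in MTf 6, against 107 in vector 1 and 420 in vector 2.

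**Figure D3:**
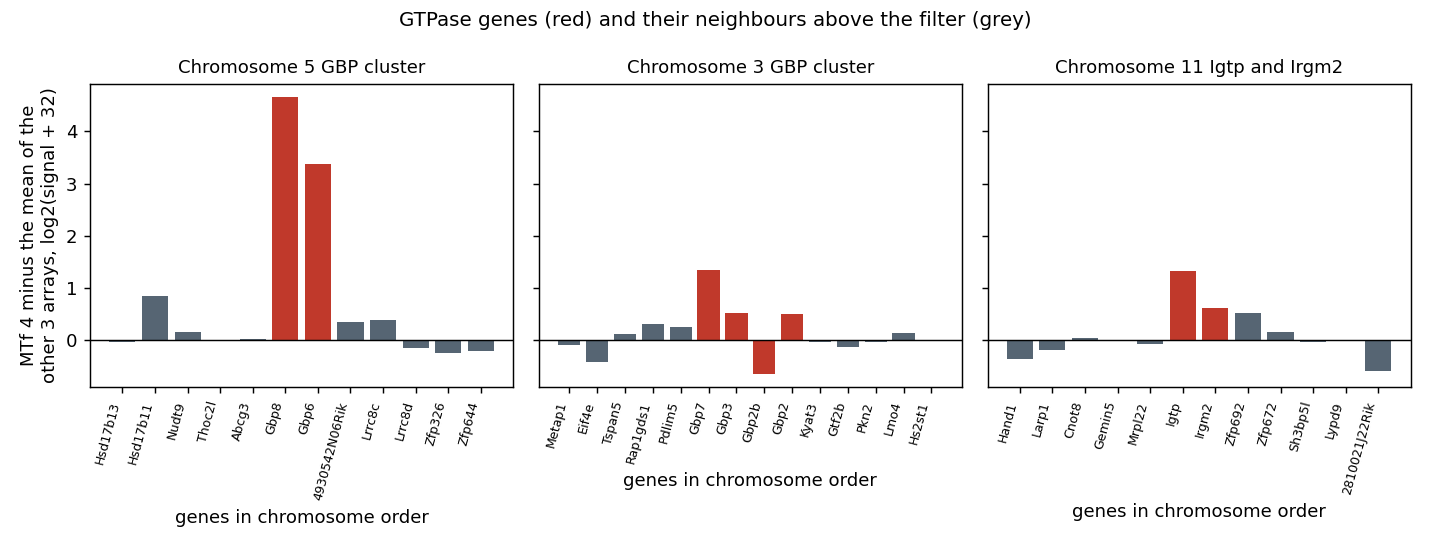
Log2 difference between MTf 4 and the mean of the other 3 arrays for GTPase genes (red) and the 5 nearest genes above the filter on either side (grey), in chromosome order, 1 bar per gene. Gbp8 and Gbp6 reach 4.65 and 3.37, while their neighbours on chromosome 5 stay between -0.24 and 0.86.

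The interferon receptor genes above the filter lay within 0.36 (log2) of the mean of the other arrays in MTf 4. Of the measured ligand genes, all under the filter, Ifng and Ifnb1 were lowest there and Ifna4 was highest. Between 15.7% and 17.8% of probe sets were under 32 on each array, and detection calls were not used. The order of arrays at signals as dim as those of Ifng and Ifna4 thus does not show that these genes were expressed. Ifng measured 19.2 in MTf 4 and 68.5 in MTf 6, against 51.0 in vector 1 and 129 in vector 2. Ifnb1 measured 136 in MTf 4 and 219 in MTf 6, against 159 in vector 1 and 218 in vector 2. Ifna4 measured 37.7 in MTf 4 and 25.8 in MTf 6, against 30.2 in vector 1 and 12.7 in vector 2. Ifngr1, the ligand-binding chain of the interferon-gamma receptor, measured 1263 in MTf 4 and 1148 in MTf 6, against 1198 in vector 1 and 944 in vector 2. Ifngr2, its signalling chain, was also highest in MTf 4, by 1.04-fold, while Ifnar1 and Ifnar2, the type I receptor chains, and Il10rb, a chain of the type III receptor, were highest on another array. Of 5 ligand and receptor genes above the filter, 0 passed the limma test in either direction, and MTf 4 was highest in 2, against 30.5% of all 10682 genes above it.

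Among 14 signalling genes above the filter 0 passed the limma test. MTf 4 was highest in 8, against 30.5% of all genes, and at least 2-fold above each other array in 2, against 0.225%. These were Irf9, a DNA-binding factor of type I interferon signalling, and Irf7, an amplifier of type I interferon. Irf9 measured 1236 in MTf 4 and 352 in MTf 6, against 557 in vector 1 and 540 in vector 2. Irf7 measured 436 in MTf 4 and 144 in MTf 6, against 134 in vector 1 and 189 in vector 2. Usp18, an interferon-induced brake on the type I receptor that was under the filter, measured 437 in MTf 4 and 160 in MTf 6, against 17.2 in vector 1 and 156 in vector 2. The other signalling genes under the filter were not highest in MTf 4. Socs1 was lowest there, at 144 (MTf 6 186, vector 1 185, vector 2 200). Irf8 was highest in vector 1 and Ciita in vector 2. Irf1, the factor through which interferon-gamma switches on many GBP genes, measured 1931 in MTf 4 and 1880 in MTf 6, against 1603 in vector 1 and 1962 in vector 2, so MTf 4 was not on top. The receptor kinases Jak1 and Jak2 and the factor Stat2 were highest in MTf 4 by at most 1.13-fold over the next array, and Stat3 by 1.25-fold. Nlrc5, the activator of MHC class I genes, was 1.35-fold above the next array in MTf 4, and Irf2 1.06-fold. Tyk2, Irf3 and Batf2 were highest in vector 2, and Ptpn2, a phosphatase that restrains JAK signalling, was lowest in MTf 4. The feedback inhibitor Socs3 was lowest in MTf 4, at 460 (MTf 6 496, vector 1 992, vector 2 588).

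Many other genes that interferons induce were also highest in MTf 4, by smaller amounts than Gbp6. The median log2 difference of MTf 4 from the mean of the other arrays was 0.48 over 25 antiviral genes and 0.52 over 16 antigen presentation genes, against 0.03 over all genes. Marker lists had like medians, 0.43 over 8 fibroblast markers, of which 7 were highest in MTf 4, and 0.52 over 5 macrophage markers, and their part in these values was not tested. MTf 4 was highest in 18 of the 25 and 12 of the 16, against 30.5% of all genes, and 0 of either list passed the limma test. In 2 of the 25, and 0 of the 16, it was at least 2-fold above each other array, against 0.225% of all genes, and the 2 were Ifit3 and Xaf1, named after their values were seen. The median difference of vector 2 from vector 1 was 0.32 and 0.33 in these lists, against 0.03 over all genes, and that of MTf 6 from the vector lines was -0.10 and -0.19, against -0.02. Ifitm3, which blocks virus entry, measured 34744 in MTf 4 and 17393 in MTf 6, against 23692 in vector 1 and 27503 in vector 2. H2-D1, a classical MHC class I gene, measured 47112 in MTf 4 and 24359 in MTf 6, against 30737 in vector 1 and 37420 in vector 2. Bst2, Ifi35, Ifitm2 and Trim25 were likewise highest in MTf 4, by 1.05 to 1.31-fold over the next array, as were B2m, Calr and Tapbp by 1.08 to 1.14-fold, while Pdia3 was highest in vector 2. Some bright genes outside these lists were also highest there, such as Vim by 1.13-fold and Rps14 by 1.14-fold, while Sqstm1 and Map1lc3b were not. Whether bright signals as a whole were higher on this array was not tested.

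Interferon-gamma targets outside these lists did not share 1 direction. Of 5 chemokine and other target genes above the filter MTf 4 was highest in 3, against 30.5% of all genes, and lowest in 2. In the limma test 0 passed, against 0.00444% of all tested probe sets. Lgals9, a galectin, measured 683 in MTf 4 and 246 in MTf 6, against 237 in vector 1 and 272 in vector 2. Ccl2, a monocyte chemokine, measured 360 in MTf 4 and 1150 in MTf 6, against 2152 in vector 1 and 1015 in vector 2, and Ccl7 was also lowest in MTf 4. Lgals3bp was 1.17-fold above the next array in MTf 4, and Vcam1 1.03-fold. Of the genes of this list under the filter, Ccl5 (by 3.55-fold over the next array) and Cxcl9 were highest in MTf 4. Serping1, Nos2 and Acod1 were lowest there, and the others were neither.

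Machinery that works with the GTPases, and related dynamin-like proteins that interferon does not induce, had medians near that of all genes. Over 20 genes of autophagy and vacuole targeting the median difference of MTf 4 was 0.04, and over 13 other dynamin-like proteins, EHD ATPases among them, it was 0.06, with 0 passing the limma test in each. The autophagy genes ran from -0.30 to 1.58, the top value being Map1lc3a, an LC3 protein. Sqstm1, the autophagy receptor p62, measured 30871 in MTf 4 and 29363 in MTf 6, against 30594 in vector 1 and 31571 in vector 2. Gabarap, an ATG8 protein that helps IRG proteins reach the right membrane, measured 30835 in MTf 4 and 22814 in MTf 6, against 21542 in vector 1 and 29541 in vector 2. Map1lc3b, Atg3 and Ubqln1 were not highest in MTf 4. Of the dynamin-like genes, Dnm1l and Opa1 were highest in vector 2, and Atl3, Ehd1 and Ehd2 in MTf 4, by 1.02 to 1.28-fold.

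**Figure D4:**
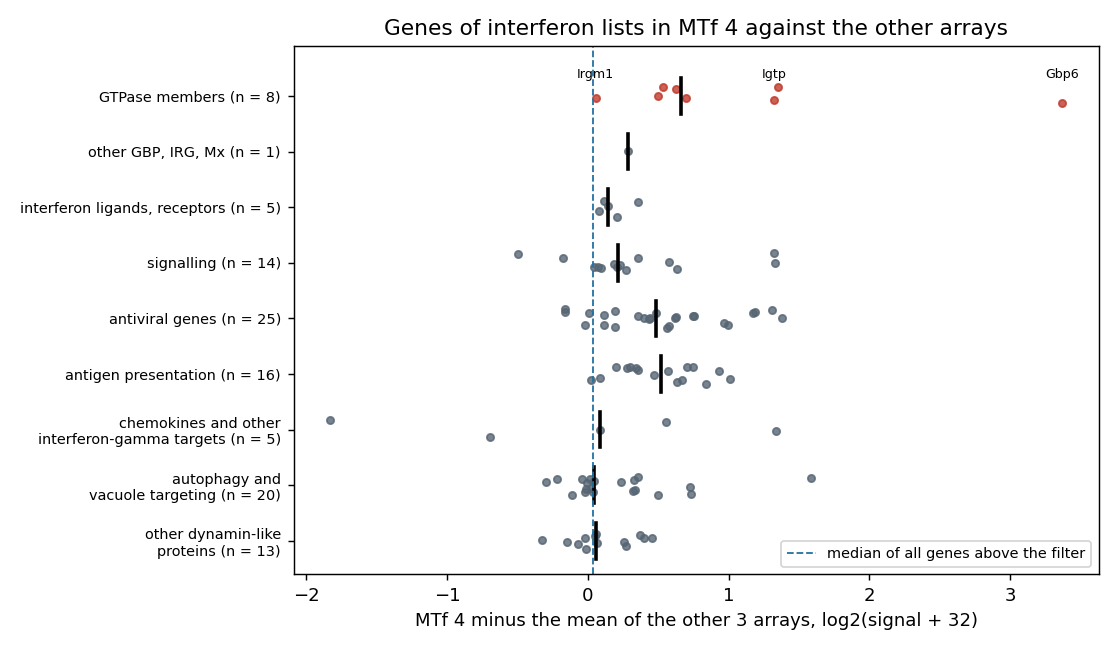
Log2 difference between MTf 4 and the mean of the other 3 arrays, 1 point per gene (its brightest probe set), with black bars at list medians and a dashed line at the median of all genes above the filter. All 8 measured GTPases are shown, also those under the filter, and only genes above it for the other lists; medians are 0.66 for the GTPases, 0.48 for antiviral and 0.52 for antigen presentation genes.

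By distance between deviations from the 4-array mean on the log2 scale, the 5 genes nearest to Igtp among the other 10681 above the filter were Malat1 (0.17), Ift27 (0.19), Dusp16 (0.23), Etfbkmt (0.23) and Zfp775 (0.25). Malat1, a nuclear long non-coding RNA, measured 23859 in MTf 4 and 11670 in MTf 6, against 7236 in vector 1 and 13796 in vector 2. Nearest to Gbp6 were Selenop (1.25), Pcdhb9 (1.33), Atg2a (1.54), Tmem53 (1.56) and Map1lc3a (1.57). Selenop, which encodes the selenium carrier selenoprotein P, measured 15087 in MTf 4 and 2222 in MTf 6, against 3916 in vector 1 and 5004 in vector 2. The distance was thus larger for Gbp6 than for Igtp throughout, and 0 of the 10 genes is a GBP or IRG gene. Gbp8, below the filter, could not be among them, while Irgm1, Iigp1 and Irgq could and were not. With 4 arrays such likeness describes order and size only.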

How the data were processed

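Total RNA of 4 stably transfected LMTK- lines (MTf 4, MTf 6, vector 1, vector 2) was hybridised to Affymetrix mouse arrays, 1 array per line, and groups came from the labels. The deposited values are intensity values, 1 signal per probe set, which the authors computed in GCOS 1.3, as the submitters' processing notes list it. Its settings are not stated there. Detection calls were not used.

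Signals were used as deposited, as log2(signal + 32). limma 3.58.1 in R 4.3.3 (lmFit, eBayes with a trend) tested MTf minus vector over 22519 of 45037 probe sets, calling an adjusted p (Benjamini-Hochberg) under 0.05. The script was tested on simulated data. An exact permutation test (two-sided) of 2 against 2 arrays cannot go below 0.333, and the number of arrays limits all precision.

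Gene names came from the platform annotation, in which 34945 probe sets have 1 gene, 932 several and 9160 none, and only the first kind was used. The members and gene lists were chosen with earlier results of these data known. Named were all members, the wider family, ligand, receptor and signalling genes above the filter, in the other lists up to 5 genes with the highest mean, the 5 genes nearest in pattern to Igtp and Gbp6, and the top neighbour of each cluster. Some genes under the filter (Gbp8, Gbp2b, Ifi47, Mx1, Mx2, Ifng, Ifnb1, Ifna4, Usp18, Socs1, Irf8, Ciita, Ccl5, Cxcl9, Serping1, Nos2, Acod1) are described in addition, after their values were seen. Promoter sequences are RefSeq's, in GRCm38.p6, aligned with Biopython 1.88. Alternatives covered the offset, scaling, trend, filter, choice of probe set and each array left out.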

Additional observations from a re-analysis of the deposited data

How the results depend on the processing

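Among GTPase probe sets 0 were called by limma in each setting that kept all 4 arrays (0 of 4 at an unadjusted 0.05 in the main one), and with 1 array left out 0 to 1, the 1 being Gbp6 without MTf 6, a call that the choice of Gbp6 for its level in MTf 4 makes void as a test. Over all probe sets 1 was called, but 0 without the trend, 0 without the filter, and 2 to 25 with 1 array left out. Such fits assume that the lone array of a group varies like the other group, and the cause of these changes was not tested. With 1 array left out, the clones-minus-vector log2 difference lay between -1.33 and 2.92 for Gbp6, -0.065 and 0.25 for Irgm1 and -0.31 and 0.76 for Iigp1. It lay between -0.12 and 0.46 for Gbp2 and -0.39 and 0.55 for Irgm2, both under the filter. Its sign thus turned for these genes, and stayed positive for Gbp3, Gbp7 and Igtp. With an offset of 64 MTf 4 was at least 2-fold above each other array in 3 GTPase probe sets, and after quantile normalization in 4, not 5; a larger offset shrinks the folds of dim probe sets. This count, and that of 9 probe sets highest in MTf 4, were recomputed under settings added after seeing the data, and the 9 became 9 to 10. Averaging the probe sets of a gene moved the clones-minus-vector difference to -0.24 for Gbp2 and -0.09 for Gbp7. The median of 0.66 over the 8 genes lay between 0.59 and 0.79 in all settings run. No paired analysis was possible because the clones and vector lines share no replicate numbers. Dim probe sets limit what can be said of the chromosome 3 GBP genes.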

Other observations

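Outside the GTPases, some other probe sets had MTf 4 as far above the remaining arrays, and they are named here after their values were seen. Klhl4, of the kelch-like family, measured 816 in MTf 4 and 2.7 in MTf 6, against 5.7 in vector 1 and 21 in vector 2. The probe set of 2610005L07Rik measured 2574 in MTf 4 and 92.7 in MTf 6, against 132 in vector 1 and 112 in vector 2. Ehd3, an endocytic dynamin-like ATPase, measured 374 in MTf 4 and 32.1 in MTf 6, against 32 in vector 1 and 49.1 in vector 2 by 1417235_at. By 1417236_at, the Ehd3 probe set with the highest mean, Ehd3 measured 263 in MTf 4 and 254 in MTf 6, against 314 in vector 1 and 268 in vector 2, so the probe sets of this gene disagree.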
